A study of Caenorhabditis elegans with 20 samples.

Results

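To examine how the transcriptome of animals without EGL-9 and HIF-1 differs from that of wild type, animals mutant for both genes (*egl-9 hif-1*, with the alleles *egl-9(sa307)* and *hif-1(ia4)*) were compared with the wild-type strain N2. The comparison uses 8 of the 20 libraries of the series, 4 per genotype, and covers all 27375 genes. The other libraries are from *egl-9(sa307)* single mutants, from *hif-1(ia4)* single mutants and from OR3350, a strain that carries both mutations and the *odIs131[hif-1::gfp]* transgene, which supplies tagged HIF-1. Per the study's methods, OR3350 also carries the *unc-119(ed3)* mutation, and its transgene holds *unc-119(+)*. Each library was made from poly(A)-selected RNA of whole hermaphrodites, synchronized as arrested L1 larvae and grown at 20 °C to the L4 stage in air. RNA came from all tissues at once, so fewer cells of a type and less RNA per cell cannot be told apart.

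In air the prolyl hydroxylase EGL-9 modifies the transcription factor HIF-1, which is then ubiquitinated and destroyed, and loss of EGL-9 leaves HIF-1 stable and active. In *egl-9 hif-1* animals both proteins are lost, so a difference from wild type in this strain arises without HIF-1. EGL-9 is also known to have functions that do not need HIF-1. The comparison cannot tell apart the loss of EGL-9, the loss of HIF-1 and other differences between the strains, and the *hif-1* single mutants, which would carry the second of these alone, were not analysed here.

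The deposited tables compare *egl-9* and OR3350 with wild type and with *egl-9 hif-1*, and hold no value per library. The log2 difference of each gene (*egl-9 hif-1* minus wild type) was therefore the log2 fold change of *egl-9* against wild type minus that of *egl-9* against *egl-9 hif-1*. The same difference formed through OR3350 was identical to within 4.9e-08. A standard error (SE, given after ±) and a negative binomial likelihood ratio test were rebuilt for each gene from the deposited statistics, and a gene was called when its Benjamini-Hochberg adjusted p was below 0.01. Levels are given as CPM, the reads of a gene scaled to library depth, and are group estimates recovered from the same tables. The sources used here do not say whether the *hif-1* libraries entered the deposited mean log2 CPM, and the levels assume that they did. In 1215 genes the 4 tabulated genotypes had equal levels although the mean was above its minimum. The scale of the levels also depends on an assumed level of the *hif-1* libraries, which the differences do not.

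In *egl-9 hif-1* animals 1250 genes were higher and 680 were lower than in wild type, or 4.57% and 2.48% of the genes tested (7.05% in all). The median log2 difference was 1.69 among the higher genes and -0.71 among the lower genes, and 964 of the higher but 207 of the lower genes differed by more than 2-fold. Among the 14035 expressed genes, defined by a mean log2 CPM of 0 or more, 1635 (11.6%) were called, and the median log2 difference of these 14035 genes was -0.06. Subtracting this median moved the share of higher genes among the calls to 75.3% (1446 higher and 474 lower), against 64.8% without it. With an upper bound in place of the solved error, the summed squared errors of the deposited comparisons that form the difference, 407 genes were higher and 84 lower, and 88 of the 173 named genes that were called lost their call, among them *col-101*, *vit-4*, T13F3.6, *lin-42*, *nas-37*, *pck-1*, *ldh-1* and *myo-2*.

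**Figure D1:**
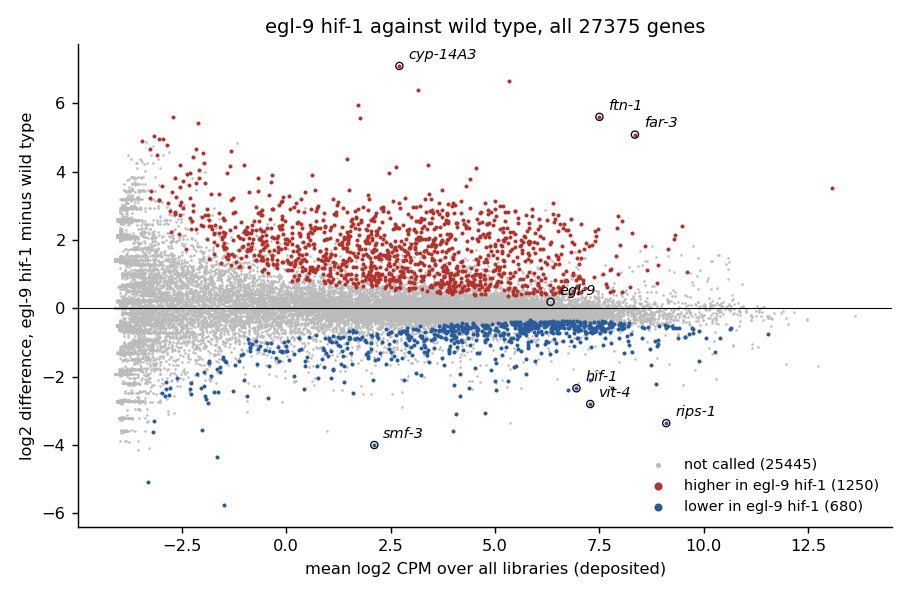
Log2 difference of each gene (*egl-9 hif-1* minus wild type) against its mean log2 CPM over all libraries. Red points are the 1250 higher genes, blue points the 680 lower genes and grey points the genes not called. Ringed genes are named, with *cyp-14A3* highest at 7.09 and *smf-3* at -4.0.

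The estimated depth was 41.8 M reads per library in *egl-9 hif-1* and 24.7 M in wild type, with 46.4 M in *egl-9* and 23.6 M in OR3350. These are effective depths, solved from the tables on an assumed form of the authors' scaling, and those of wild type and OR3350 lie below the sequenced reads per sample that the methods state. The reason for this gap was not tested. The study used more than 1 sequencing provider, and the provider of each library is not given in the sources used here. Of 9 ribosomal RNA genes, 4 were expressed and 1 was called. The called gene, the large-subunit gene *rrn-3.1*, whose RNA has no poly(A) tail, had an estimated 16404 CPM in *egl-9 hif-1*, 14508 CPM in *egl-9*, 1625 CPM in OR3350 and 1421 CPM in wild type (chosen after its values were seen). Of the 12 protein-coding genes of the mitochondrial genome, 7 were lower in *egl-9 hif-1* and 0 higher. These 7 log2 differences lay between -1.92 and -0.61, and the same genes had deposited log2 fold changes of -2.10 to -0.49 in *egl-9* and of -0.31 to 0.31 in OR3350, both against wild type. ND1, a subunit of respiratory complex I, had 303 CPM in *egl-9 hif-1*, 303 CPM in *egl-9*, 634 CPM in OR3350 and 588 CPM in wild type. Depth, *rrn-3.1* and these mitochondrial transcripts thus separated the same 2 genotypes from the other 2, and their part in the results below was not tested.

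The genotype was examined first. *hif-1* (V:20780407-20785260 on WBcel235) had an estimated 37.1 CPM in *egl-9 hif-1* and 188 CPM in wild type, a log2 difference of -2.34 ± 0.11 (SE, adjusted p = 5.6e-88). Its reads did not vanish, and a read outside the deleted part of the gene still counts. *egl-9* (V:10468517-10476915) had 25.8 CPM in *egl-9 hif-1* and 22.6 CPM in wild type, a log2 difference of 0.19 ± 0.13 (95% interval -0.06 to 0.45, adjusted p = 0.42), so the label of the sa307 allele cannot be examined from its transcript level. *egl-9* is itself a transcriptional target of HIF-1, and *egl-9* single mutants had 217 CPM.

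Known components of the HIF-1 pathway were close to their wild-type levels in the double mutant. Of the 7 regulators, which include *hif-1*, only *hif-1* was called. *vhl-1*, which encodes the ubiquitin ligase subunit that recognizes hydroxylated HIF-1, differed by -0.05 ± 0.19 and *aha-1*, the partner of HIF-1 on DNA, by 0.07 ± 0.14 on the log2 scale. *cysl-1*, whose product binds and inhibits EGL-9, differed by -0.09 ± 0.12 and *swan-1*, encoding a WD40 scaffold protein, by 0.14 ± 0.15. *rhy-1*, an acyltransferase gene that restrains HIF-1, had 12.6 CPM in *egl-9 hif-1* and 12 CPM in wild type, against 907 CPM in *egl-9*. The regulators *egl-9*, *rhy-1* and *cysl-1* are also among the direct targets described below. Those were chosen with wild type and *egl-9 hif-1* as the low groups, so the levels of these regulators are no independent evidence.

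In a list of 7 HIF-1 targets known from earlier work, 0 were called. All 7 are also among the direct targets described below, a set chosen with wild type and *egl-9 hif-1* as the low groups. The count is therefore no independent evidence, and the list does not stand for all known targets. *egl-9* and *rhy-1* are counted both in this list and among the regulators. The nuclear receptor gene *nhr-57* had 3.92 CPM in *egl-9 hif-1* and 3.42 CPM in wild type, with 352 CPM in *egl-9*. *phy-2*, which encodes a collagen prolyl hydroxylase, had 75.2 CPM in *egl-9 hif-1* and 53.4 CPM in wild type (log2 difference 0.49 ± 0.17, adjusted p = 0.042). *cysl-2*, encoding a cyanoalanine synthase, had 11.6 CPM in *egl-9 hif-1* and 15.8 CPM in wild type (-0.45 ± 0.19, adjusted p = 0.12). The kinase gene *efk-1* differed by -0.12 ± 0.13 and F22B5.4 by 0.10 ± 0.16. The intervals of these genes do not show that they were equal to wild type, but each difference was small beside the deposited log2 fold change of *egl-9* against wild type, which was 6.68 for *nhr-57* and 1.42 for *efk-1*.

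By the rule of the 12 largest rises and 12 largest falls whose mean log2 CPM was 1 or more, the rises began with the cytochrome P450 gene *cyp-14A3* (X:13271837-13274202), which had 12.8 CPM in *egl-9 hif-1* and 0.0901 CPM in wild type, a log2 difference of 7.09 ± 0.67 (adjusted p = 4.6e-23). *egl-9* had 12.9 CPM and OR3350 0.106 CPM of this transcript. The P450 gene *cyp-34A10* had 19.2 CPM in *egl-9 hif-1*, 14.9 CPM in *egl-9*, 0.249 CPM in OR3350 and 0.227 CPM in wild type. R09E12.9 (log2 difference 6.65 ± 0.47), *ugt-33* (4.19 ± 0.43), R02C2.7 (4.14 ± 0.40) and *cyp-14A2* (4.10 ± 0.23) were likewise high in *egl-9 hif-1* and *egl-9* and far lower in OR3350. The deposited log2 fold changes of OR3350 against wild type for these 4 genes were 1.29, 0.67, 1.13 and 0.55.

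For *ftn-1*, *far-3*, *cnc-11* and C14C6.8, the deposited FDR against wild type was also below 0.01 in both *egl-9* and OR3350. *ftn-1*, encoding the iron storage protein ferritin, had 168 CPM in *egl-9 hif-1*, 371 CPM in *egl-9*, 276 CPM in OR3350 and 3.45 CPM in wild type. Its log2 difference was 5.60 ± 0.31, or 48.6-fold (adjusted p = 1.0e-49). *far-3*, which encodes a fatty acid and retinol binding protein, had 105 CPM in *egl-9 hif-1* and 3.11 CPM in wild type (5.08 ± 0.38), and reached 960 CPM in *egl-9*. *cnc-11*, a caenacin antimicrobial peptide gene, rose by 3.97 ± 0.71. The glucuronosyltransferase gene *ugt-34* rose by 5.96 ± 0.78, with 8.97 CPM in *egl-9 hif-1*, 1.90 CPM in *egl-9*, 0.632 CPM in OR3350 and 0.140 CPM in wild type. W02D7.11 rose by 5.58 ± 1.21, with 5.83 CPM in *egl-9 hif-1*, 4.86 CPM in *egl-9*, 2.93 CPM in OR3350 and 0.118 CPM in wild type. The deposited FDR of OR3350 against wild type was 0.038 for *ugt-34* and 0.014 for W02D7.11, above the threshold. C14C6.8 rested on an estimated 2.14 reads in the 4 wild-type libraries together, and its difference of 4.36 had a 95% interval of 2.35 to 6.37.

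**Figure D2:**
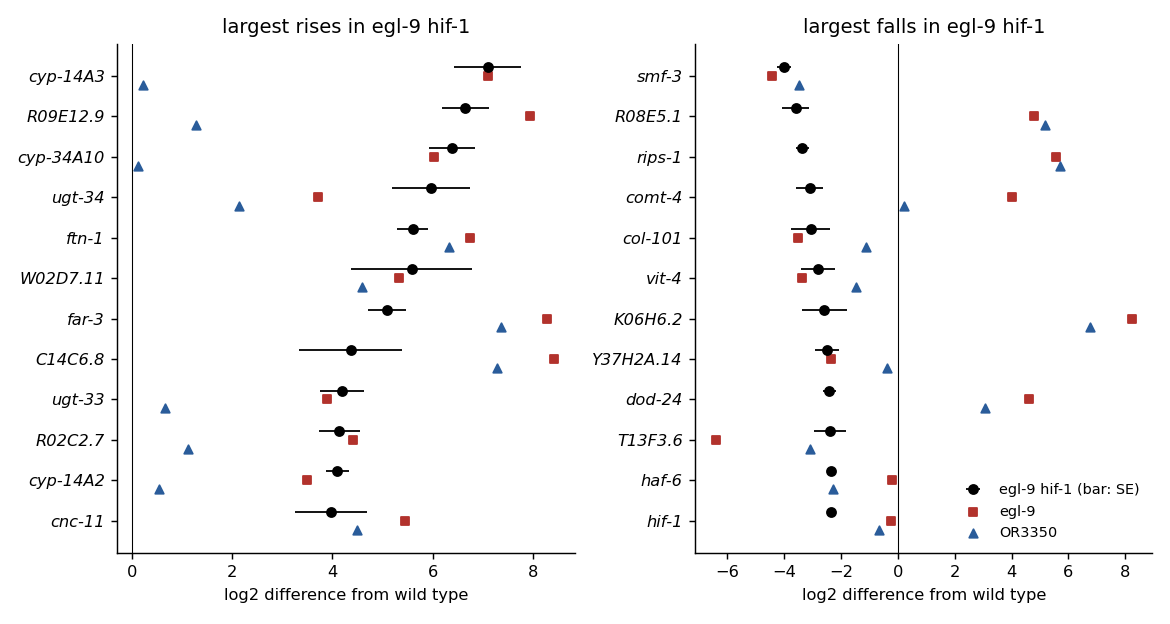
The 12 largest rises (left) and 12 largest falls (right) in *egl-9 hif-1*, as log2 difference from wild type. Black circles are *egl-9 hif-1* with SE, and red squares and blue triangles are the authors' log2 fold changes of *egl-9* and OR3350 from the same 4 wild-type libraries. *cyp-14A3* lies at 7.09 in *egl-9 hif-1* and 0.22 in OR3350, and *rips-1* lies at -3.36 in *egl-9 hif-1* and 5.56 in *egl-9*.

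Among the falls, *smf-3*, which encodes a manganese and iron transporter of the DMT1 family, had 0.769 CPM in *egl-9 hif-1*, 0.575 CPM in *egl-9*, 1.11 CPM in OR3350 and 12.3 CPM in wild type (log2 difference -4.0 ± 0.24, adjusted p = 8.4e-54). Its level was thus low in all 3 mutant strains. A further group was below wild type in *egl-9 hif-1* and far above it in *egl-9*. The adjacent methyltransferase genes *rips-1* (V:3772021-3774609) and R08E5.1 (V:3769798-3771518) belonged to it. *rips-1* had 2.65 CPM in *egl-9 hif-1*, 1282 CPM in *egl-9* and 27.2 CPM in wild type (-3.36 ± 0.23, adjusted p = 1.4e-38). R08E5.1 had 0.0973 CPM in *egl-9 hif-1*, 33.6 CPM in *egl-9* and 1.2 CPM in wild type. The methyltransferase gene *comt-4* (-3.09 ± 0.47), *dod-24* (-2.40 ± 0.23) and K06H6.2 (-2.58 ± 0.80) showed the same order of the 3 genotypes. OR3350 divided this group. Its deposited log2 fold changes against wild type were 5.71 for *rips-1*, 5.18 for R08E5.1, 6.77 for K06H6.2 and 3.05 for *dod-24*. For *comt-4* the value was 0.23, so this gene was near its wild-type level in that strain. The call of K06H6.2 was lost at a depth of 25 M reads per library.

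*haf-6*, encoding a half-molecule ABC transporter, was low in another combination of strains. It had 7.10 CPM in *egl-9 hif-1*, 7.35 CPM in OR3350, 31.2 CPM in *egl-9* and 36.0 CPM in wild type (log2 difference -2.34 ± 0.13, adjusted p = 1.4e-59), and so was low in both of the tabulated strains that carry *hif-1(ia4)*. The *hif-1* single mutants have no value in these comparisons. The remaining large falls were the collagen gene *col-101* (-3.06 ± 0.68), the yolk protein gene *vit-4* (-2.80 ± 0.60), Y37H2A.14 (-2.48 ± 0.43) and T13F3.6 (-2.39 ± 0.56).

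Many enzymes of xenobiotic metabolism rose, beside a share of 4.57% of all genes. Among 74 cytochromes P450, which oxidize lipids and foreign compounds, 22 were higher (29.7%) and 5 lower. Among 67 UDP-glucuronosyltransferases, which couple such compounds to sugars, 20 were higher (29.9%) and 4 lower. With the upper bound 12 and 10 genes of these lists stayed higher. *ugt-9* had 27.4 CPM in *egl-9 hif-1*, 6.13 CPM in *egl-9*, 1.79 CPM in OR3350 and 2.68 CPM in wild type, a rise of 3.35 ± 0.30 on the log2 scale. *cyp-34A9* rose by 3.79 ± 0.30 and *ugt-14* by 2.95 ± 0.47. Of 30 short-chain dehydrogenases 8 were higher and 2 lower, and of 5 flavin-containing monooxygenases 3 were higher, with *fmo-5* at 1.01 ± 0.16. Of 49 glutathione S-transferases 4 were higher and 2 lower. Of 48 ABC transporters, many of which export compounds from cells, 1 was higher and 9 were lower (18.8%, beside 2.48% of all genes), among them *pgp-9* (-1.04 ± 0.23) and *abt-4* (-1.17 ± 0.26), and with the upper bound 1 was lower. P450, glucuronosyltransferase and other gene families hold near-identical copies, and how the authors' counts divided reads among them is not given in the sources used here.

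Genes of the cuticle and of molting were also called, beside 4.57% of all genes higher and 7.28% of expressed genes. Of 85 hedgehog-related and patched-related genes, which in this animal act mainly in the epidermis and in molting, 29 were higher (34.1%) and 1 lower, and their expressed members had a median log2 difference of 1.37. *wrt-10*, a warthog gene, had 48.6 CPM in *egl-9 hif-1* and 5.47 CPM in wild type (3.15 ± 0.36). The patched-related gene *ptr-22* rose by 3.46 ± 0.41 and the ground-like gene *grl-15* by 2.87 ± 0.45. Of 128 cuticlin, molting, abu and pqn genes 25 were higher (19.5%) and 0 lower, while the median of the expressed members was 0.08, with 59 above and 51 below 0. *noah-1*, which encodes an apical matrix protein of the epidermis, had 132 CPM in *egl-9 hif-1*, 113 CPM in *egl-9*, 118 CPM in OR3350 and 19.9 CPM in wild type (2.72 ± 0.35, adjusted p = 4.9e-11). *noah-2* rose by 2.62 ± 0.34, *mlt-9* by 2.65 ± 0.42 and *fbn-1*, which encodes a fibrillin-like matrix protein, by 2.57 ± 0.23. Of 176 cuticle collagens 27 were higher (15.3%) and 7 lower, with a median of 0.30 and with *dpy-9* at 3.09 ± 0.43 and *col-128* at 3.31 ± 0.46. Of 38 astacin metalloproteases 5 were higher (13.2%), with a median of 0.08, including *nas-37*, an enzyme of molting (1.29 ± 0.25). With the upper bound 12 hedgehog-related and patched-related genes, 11 cuticlin and molting genes and 12 collagens were higher. The astacin genes *nas-6*, *nas-14*, *nas-15* and *nas-37* lost their calls with it.

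Counts in the next lists stand beside 4.57% higher and 2.48% lower of all genes. Of 15 developmental timing genes 3 were higher (20%) and 0 lower, and their median log2 difference was 0.02, with 8 above and 7 below 0. Of the 3, *lin-42* and *dre-1* lost their calls with the upper bound. *lin-42*, the period homolog whose transcript cycles with the molts, had 160 CPM in *egl-9 hif-1*, 157 CPM in *egl-9*, 142 CPM in OR3350 and 57.3 CPM in wild type (1.48 ± 0.36, adjusted p = 0.0015). *grh-1*, an epidermal transcription factor gene of the Grainyhead family, rose by 1.41 ± 0.26. Of 10 osmotic response genes 3 were higher: *osr-1* (2.95 ± 0.41) and *osm-8* (2.92 ± 0.45), which act in the epidermis, and the glycerol-3-phosphate dehydrogenase gene *gpdh-2* (0.49 ± 0.13). The vitellogenins, yolk proteins made in the adult intestine, were lower for 3 of 6 genes (1 with the upper bound), with *vit-3* at 100 CPM in *egl-9 hif-1*, 69.3 CPM in *egl-9*, 148 CPM in OR3350 and 505 CPM in wild type (-2.33 ± 0.43). The vit genes are close copies of each other. Of 116 sperm genes 0 were higher and 3 lower (2.59%), and of 29 germ line and oocyte genes 1 was higher and 1 lower (3.45% each). These shares of lower genes lie near that of all genes. Most expressed members lay below 0, 86 of 102 sperm genes and 25 of 28 germ line and oocyte genes. The median log2 difference was -0.25 in each of these 2 lists. Of all 14035 expressed genes 8050 lay below 0, with a median of -0.06. The same wild-type libraries stand in each of these differences, and the part of stage in them was not tested.

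**Figure D3:**
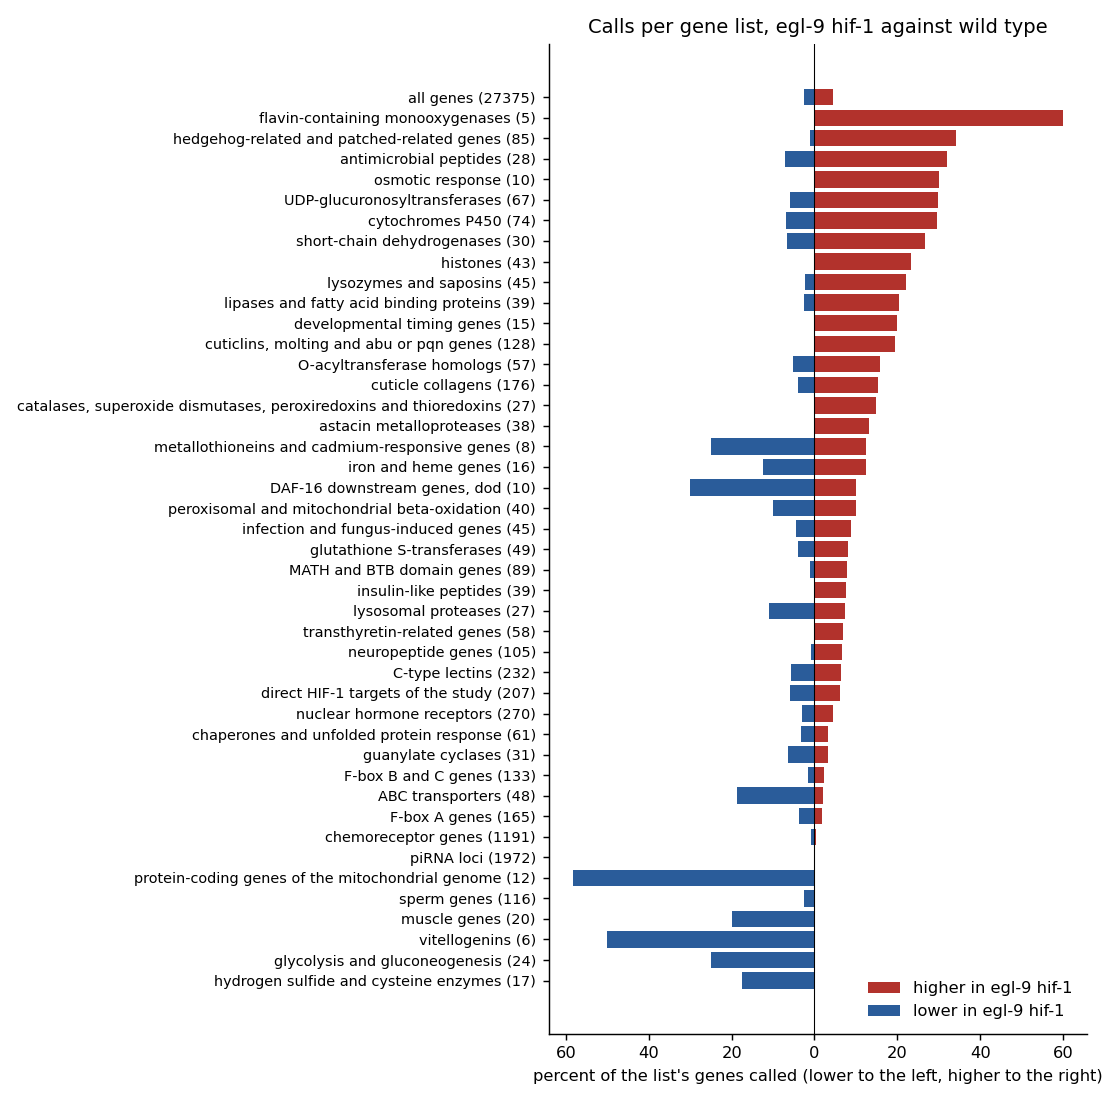
Percent of the genes of each list called higher (red, to the right) and lower (blue, to the left) in *egl-9 hif-1* against wild type, for lists with at least 3 calls, with the number of genes in brackets. All genes stand at the top with 4.57% higher and 2.48% lower, and the cytochromes P450 and UDP-glucuronosyltransferases reached 29.7% and 29.9% higher.

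Lists of innate defence genes differed in their counts, beside 4.57% higher and 2.48% lower of all genes. Of 28 antimicrobial peptide genes 9 were higher (32.1%) and 2 lower, with a median of 0.33 over the expressed members, and of 45 lysozymes and saposins 10 were higher (22.2%) and 1 lower, with a median of 0.38. The caenacin genes *cnc-2* (3.11 ± 0.41), *cnc-3* (3.09 ± 0.45) and *cnc-4* (2.47 ± 0.32) rose beside *cnc-11*. *lys-7*, a lysozyme gene, had 176 CPM in *egl-9 hif-1*, 367 CPM in *egl-9*, 160 CPM in OR3350 and 41.0 CPM in wild type (2.11 ± 0.17, adjusted p = 2.5e-30). The saposin-like gene *spp-2* had 57.7 CPM in *egl-9 hif-1*, 19.3 CPM in *egl-9*, 7.41 CPM in OR3350 and 9.96 CPM in wild type. Its rise was 2.53 ± 0.22, and the double mutant had the highest level of the 4 genotypes. C-type lectins were split, with 15 of 232 higher and 13 lower, most of them not called. Of 45 infection and fungus-induced genes 4 were higher (8.89%) and 2 lower, and 20 of the 28 expressed ones lay below 0, with a median log2 difference of -0.74. *fip-6*, a fungus-induced gene, rose by 3.58 ± 0.46, and *thn-1*, a thaumatin family gene, fell by 1.21 on the log2 scale.

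Of the iron and heme genes, *ftn-1*, *smf-3* and 2 others of 16 were called. Their shares were 12.5% higher and 12.5% lower, beside 4.57% and 2.48% of all genes. Of the 13 expressed iron and heme genes 10 lay above 0 and 3 below, with a median log2 difference of 0.34. *ftn-2*, encoding the second ferritin, had 705 CPM in *egl-9 hif-1*, 752 CPM in *egl-9*, 700 CPM in OR3350 and 212 CPM in wild type (1.73 ± 0.16, adjusted p = 5.3e-23), and the heme-responsive gene *hrg-10* was lower (-0.93 ± 0.26). The metallothionein gene *mtl-1* rose by 2.48 ± 0.34, with 2.17 CPM in *egl-9 hif-1*, 105 CPM in *egl-9* and 0.385 CPM in wild type. Of 8 metallothionein and cadmium-responsive genes 1 was higher (12.5%) and 2 fell (25%), *cdr-2* (-1.06 ± 0.18) and *cdr-7* (-1.03 ± 0.27). Of the 7 expressed ones 5 lay above 0 and 2 below, with a median of 0.11. The calls of *cdr-7* and *hrg-10* were lost with the upper bound.

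Metabolic and tissue lists were read beside the 4.57% of all genes that were higher and the 2.48% that were lower. Of 24 genes of glycolysis and gluconeogenesis 0 were higher and 6 lower (25%), and 0 were lower with the upper bound. *pck-1*, which encodes the gluconeogenic enzyme phosphoenolpyruvate carboxykinase, had 65.4 CPM in *egl-9 hif-1*, 2456 CPM in *egl-9*, 1037 CPM in OR3350 and 117 CPM in wild type (log2 difference -0.85 ± 0.15, adjusted p = 1.1e-06). Its paralog *pck-2* fell by 0.72, the lactate dehydrogenase gene *ldh-1* by 0.65 and the phosphofructokinase gene *pfk-1.1* by 0.59 on the log2 scale. *gpd-3* (-0.53 ± 0.14) and *aldo-1* (-0.52 ± 0.13) completed the 6 and are named after their values were seen. Of 17 hydrogen sulfide and cysteine enzymes 3 were lower (17.6%), including *sqrd-1*, the sulfide quinone oxidoreductase gene, with 0.351 CPM in *egl-9 hif-1*, 346 CPM in *egl-9* and 1.5 CPM in wild type (-2.09 ± 0.27). *cbs-1* and *cth-2*, also among the 3, lost their calls with the upper bound. Of these lower genes, *pck-1*, *ldh-1*, *gpd-3*, *aldo-1* and *sqrd-1* are also direct targets as described below, and are counted again there. The targets were chosen on these libraries with *egl-9 hif-1* and wild type as the low groups, so the 2 counts are not separate results. Of the 43 nuclear respiratory chain genes 0 were called, and their median log2 difference was -0.11. No gene was called among the 11 glycogen and trehalose enzymes, the 15 insulin signalling and stress regulators, the 16 intestinal genes and the 34 globins. Of 20 muscle genes 4 were lower (20%), with the pharyngeal myosin gene *myo-2* at -0.88 ± 0.18. All 4 lost their calls with the upper bound. Of 43 histones 10 were higher (23.3%) and 0 lower, with *his-37* at 80.1 CPM in *egl-9 hif-1*, 78.9 CPM in *egl-9*, 51.8 CPM in OR3350 and 49.6 CPM in wild type. Most histone transcripts lack a poly(A) tail, as that of *rrn-3.1* does, and the part of this in their rise was not tested. With the upper bound 2 histones were higher.

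The study named its direct HIF-1 targets from HIF-1::GFP binding sites near genes together with expression in these libraries. The expression part compared *egl-9* and OR3350 with wild type and with *egl-9 hif-1*, and the study reports the targets as raised when HIF-1 was active. The double mutant and wild type are the low groups of that choice, so the counts that follow are no independent evidence of a direction. F21C10.10, counted below as higher, is an exception, with 59.4 CPM in *egl-9 hif-1*, 35.1 CPM in *egl-9* and 19.3 CPM in wild type. Of the 216 targets, 207 were matched by name. 13 of them were higher (6.28%) and 12 lower (5.80%) in *egl-9 hif-1* than in wild type, and 182 were not called. These shares are over all matched targets, of which 176 were expressed. Over all genes the shares were 4.57% higher and 2.48% lower, and over expressed genes 7.28% and 4.37%. With the upper bound 7 targets were higher and 5 lower. The median log2 difference of the matched targets was -0.02 (-0.03 over the expressed ones), with quartiles at -0.23 and 0.14, and 153 lay within 0.5 of 0. The authors' log2 fold changes of *egl-9* against wild type had a median of 1.36 over the 207 matched targets.

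Among the targets that rose, *col-176*, a collagen gene, had 32 CPM in *egl-9 hif-1*, 74.0 CPM in *egl-9* and 4.42 CPM in wild type (2.86 ± 0.25, adjusted p = 4.5e-24). The long noncoding RNA *tts-1* had 149 CPM in *egl-9 hif-1*, 328 CPM in *egl-9* and 31 CPM in wild type (2.27 ± 0.25). *spp-9* (2.96 ± 0.89), *phat-5* (2.22 ± 0.48) and *nspe-6* (1.97 ± 0.48) were below 2 CPM in the double mutant. Among the targets that fell, *rips-1*, R08E5.1, *sqrd-1* and *nit-1*, a nitrilase gene (-1.55 ± 0.24), had levels of under 3 CPM in *egl-9 hif-1*. *mai-1*, which encodes a homolog of the mitochondrial ATPase inhibitor, had 7.71 CPM in *egl-9 hif-1*, 30.4 CPM in *egl-9* and 15.3 CPM in wild type (-0.99 ± 0.19).

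**Figure D4:**
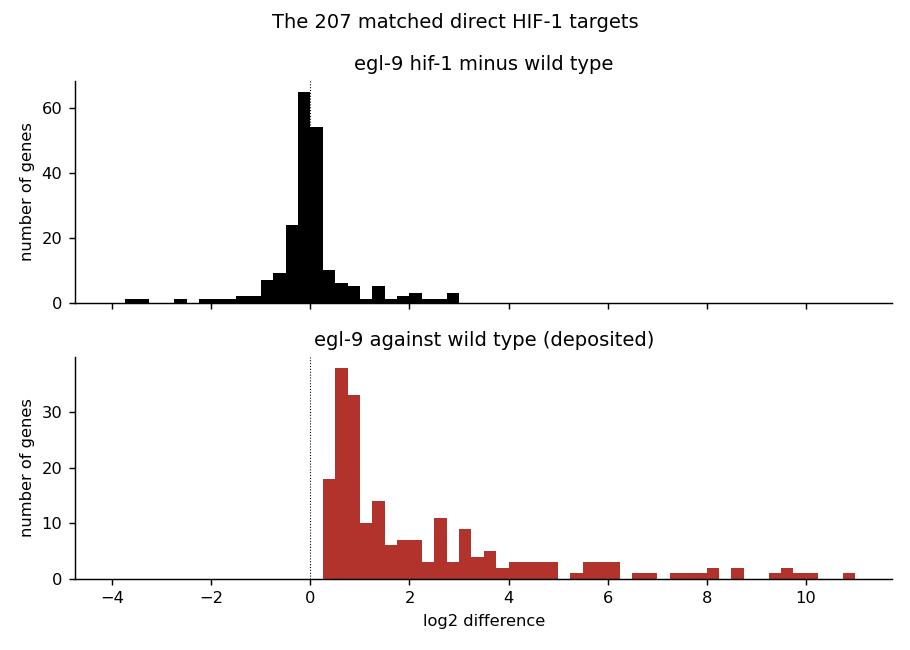
Number of direct HIF-1 targets (207 matched) by log2 difference of *egl-9 hif-1* from wild type (top) and by the authors' log2 fold change of *egl-9* against wild type (bottom), on the same horizontal axis. The top values centre on a median of -0.02 and the bottom values on 1.36.

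The share of called genes was also taken for each chromosome. Of the expressed genes, 15.6% were called on X and 15.2% on V, against 8.66% on I, 12.1% on II, 8.71% on III and 9.29% on IV. Both mutated loci lie on V, so the share was also taken within 1 Mb on each side of them. It was 11% around *egl-9* (32 higher and 9 lower of 372 genes) and 10.9% around *hif-1* (8 higher and 5 lower of 119 genes), against 16.1% on the rest of V.

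Some called genes were neighbours. Counting expressed protein-coding genes in order, 23 runs of 3 or more genes shared a direction, 22 of them higher and 1 lower, with 82 genes in all. The runs named here were chosen after their values were seen. They included *cyp-14A1*, *cyp-14A2* and *cyp-14A3* (X:13265041-13274202), 4 cnc genes (V:1442342-1450183), and *lpr-3*, *lpr-4*, *lpr-5* and *lpr-6* (X:11057401-11066811), which encode lipocalin-related proteins. *lpr-3* had 87.5 CPM in *egl-9 hif-1* and 11.7 CPM in wild type, and *lpr-4* had 52.4 CPM in *egl-9 hif-1* and 6.55 CPM in wild type. Members of such runs are often copies of one another, so their reads may be shared.

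OR3350 and *egl-9* share no library with *egl-9 hif-1* and wild type, and were compared by the same test. Each gene had the same solved dispersion in both comparisons, so their calls are not independent. Of all genes, expressed or not, 998 (3.65%) were called between OR3350 and *egl-9*, and the share over expressed genes was not taken. Among the 1250 genes higher in *egl-9 hif-1* than in wild type, 184 were lower and 15 were higher in OR3350 when compared with *egl-9*, which together are 15.9% of these genes and 19.9% of the 998. Among the 680 lower genes, 121 were higher and 18 lower in OR3350 than in *egl-9*, together 20.4% of these genes and 13.9% of the 998. The median log2 difference of OR3350 minus *egl-9* was -0.41 over the 1250 genes, 0.32 over the 680 genes and -0.03 over the 14035 expressed genes. OR3350 and wild type were the shallower libraries, at 23.6 and 24.7 M reads, and *egl-9* and *egl-9 hif-1* the deeper ones, at 46.4 and 41.8 M. The strain, the transgene and the sequencing cannot be told apart here. The log2 difference of OR3350 minus *egl-9* was -6.88 for *cyp-14A3* and -5.89 for *cyp-34A10* (adjusted p of 2.1e-22 and 1.9e-32, likelihood ratio test), while the authors' log2 fold changes of *egl-9* against *egl-9 hif-1* were 0.01 and -0.36 for these genes. *ftn-1* differed by -0.43 between OR3350 and *egl-9* (adjusted p = 0.52), and *haf-6* by -2.09 (adjusted p = 1.7e-45).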

How the data were processed

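Per the labels and the study's methods, single-end 50-bp reads were aligned by the authors to WormBase WS245, and gene counts came from STAR 2.5.1a. Testing used a generalized linear model of edgeR, whose version the sources used here do not give. The 4 deposited tables hold the authors' log2 fold changes, mean log2 CPM, the likelihood ratio statistic (a score), its p-value and the FDR. None holds counts per library.

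Differences were formed from the log2 fold changes, which the rule of the comparison requires. Depth per genotype was solved from genes with a single read, using prior counts of 2 for the mean log2 CPM and 0.125 for fold changes, after the planned single depth had been seen not to fit. The dispersion of each gene was solved from the 4 likelihood ratios. A negative binomial likelihood ratio test for 2 groups of 4 libraries followed, with Benjamini-Hochberg adjustment over 27375 genes. When each deposited ratio in turn was predicted from the other 3, the median error of its root was at most 0.18%. Standard errors are Wald values. The *hif-1* libraries were taken to be part of the mean log2 CPM, which no source states, and were set at the mean of wild type and *egl-9 hif-1*. The 4 libraries of a genotype are biological replicates. P-values rest on a single dispersion per gene, which the 4 deposited comparisons share and which is thus pooled over genotypes. The spread between the replicates of a genotype could not be measured.

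Called genes had an FDR below 0.01. The text names the 12 genes that rose most and the 12 that fell most (mean log2 CPM of 1 or more), up to 4 called members per list (mean log2 CPM of 0 or more), 5 targets per direction, and the pathway regulators and earlier targets. The comparison, its members and the 56 lists were chosen with earlier results of these data known. The patterns of several lists, among them chemoreceptors and infection genes, were corrected after values were seen. Names of 25024 genes came from the reference name table and places of 26866 from WBcel235, the assembly of that release. Python 3.11.15, numpy 2.4.6, pandas 2.3.3 and scipy 1.17.1 were used, and the test was checked on simulated data. Promoter motifs were not analysed, as no sequence was used.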

Additional observations from a re-analysis of the deposited data

How the results depend on the processing

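No paired analysis was possible because the tables hold no value per library, and for the same reason no library could be left out and no batch examined. The counts of genes called (1930), higher (1250) and lower (680) stayed within 1.5 times under 9 of 11 alternatives. An upper bound of the squared standard error gave 491 called genes (407 higher and 84 lower), of which 488 were among the 1930, and an FDR below 0.05 gave 3240 called genes, 1374 of them lower. A z test with the averaged squared error gave 1993 calls, 1879 of them shared, and a depth of 25 M reads per library gave 1892. Of the 11 alternatives 2 were chosen after seeing the data: an equal depth for every genotype gave 1941 calls, and *hif-1* libraries at the *egl-9 hif-1* level gave 1916. Of 173 named genes that were called, 85 kept the call under every alternative that tested them, and 165 under every one but the upper bound, which ended 88. Subtracting the median ended the calls of *elo-2*, *fat-3*, *gcy-9*, *gsp-3*, *msp-152* and *msp-81*. That z test ended that of *linc-7*. No named gene that was called reversed. The model missed the deposited ratios by more than 20% in 3367 genes, all with a mean log2 CPM of at most -3.11, and 0 of these were called. The planned promoter motif analysis was not run. Of the called genes, 52 had fewer than 3 estimated reads in the libraries of 1 of the 2 genotypes, and their size of change is uncertain.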

Other observations

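Beside 4.57% higher and 2.48% lower of all genes, O-acyltransferase homologs had 9 higher (15.8%) and 3 lower genes of 57, with *oac-15* at a log2 difference of 2.96 ± 0.41 (SE) and *oac-14* at 2.57 ± 0.33. Lipases and fatty acid binding proteins had 8 higher (20.5%) and 1 lower of 39, with *lipl-4* at 2.52 ± 0.39. The acyl-CoA dehydrogenase gene *acdh-6* was at 2.20 ± 0.49 and *ech-6*, an enoyl-CoA hydratase gene, at -0.86 ± 0.15, in a beta-oxidation list with 4 higher (10%) and 4 lower (10%) genes of 40. Of 105 neuropeptide genes 7 were higher (6.67%) and 1 lower, and of 270 nuclear hormone receptors 12 were higher (4.44%) and 8 lower (2.96%), shares near those of all genes. *nhr-234* had 6.48 CPM in *egl-9 hif-1*, 0.860 CPM in *egl-9*, 0.585 CPM in OR3350 and 1.59 CPM in wild type, a log2 difference of 2.03 ± 0.38. Of 1191 chemoreceptor genes, of which 21 were expressed at a mean log2 CPM of 0 or more, 5 were higher and 9 lower.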
